A study of Mus musculus with 22 samples.

Results

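The comparison described here set the hypothalamic nuclei of 2 mice given icv FGF1 against those of 2 mice given icv vehicle, all taken on Day 5. Its members were chosen by the labelled treatment, day and kind of library, and they comprised 11759 of the 24965 nuclei and 4 of the 22 mice of the series. All 4 were male, leptin-deficient Lep ob/ob mice of 11 weeks, a strain that is obese and diabetic through loss of the satiety hormone. FGF1 mice (37 and 45) received 3 µg of recombinant FGF1 into the lateral ventricle, and vehicle mice (28 and 38) received the PBS vehicle and were pair-fed (PF) to the intake of FGF1 mice, so that food intake was matched by design and not free. Each mouse gave 1 library of nuclei from a hypothalamic tissue punch, and each mouse was counted as 1 replicate. The question put to these libraries was how cell types of the hypothalamus differed from PF controls at the time when, per the study, glucose lowering was established.

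FGF1 is a secreted growth factor that binds all FGF receptor tyrosine kinases and signals through the RAS, ERK and PI3K pathways. In the adult brain its receptors are carried by astrocytes, tanycytes, ependymal cells and the oligodendrocyte lineage as well as by neurons. Oligodendrocyte precursor cells (OPC) keep dividing in the adult and can leave the cell cycle to become committed precursors (COP), which pass through a short premyelinating stage before they make myelin. Genes of that passage are therefore often used to stage the lineage.

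The 4 libraries were uneven. FGF1 mice 37 and 45 gave 2218 and 5768 nuclei, and vehicle mice 28 and 38 gave 3182 and 591. The UMI totals ran from 2721087 (vehicle mouse 38) to 16345981 (FGF1 mouse 45), and the median depth per nucleus from 2275.5 to 3986 UMIs. Of 11693 distinct barcodes, 66 occurred in more than 1 of these libraries. In the deposited metadata FGF1 mouse 37 and vehicle mouse 28 formed batch 1, and FGF1 mouse 45 and vehicle mouse 38 formed batch 2, so each batch held 1 mouse of each group. Nuclei above 5% mitochondrial or ribosomal UMIs, the limit that the study states, were more frequent in vehicle mice (5.15% and 3.21%) than in FGF1 mice (0.586% and 0.971%). An exact permutation test of 2 mice against 2 cannot give a two-sided p below 0.333, so single values were read by whether the groups overlap, and genes were tested with edgeR across all genes of a cell type.

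Some labels of the annotation were checked against marker genes before any comparison. Levels of the OPC and COP marker sets in OPC/COP nuclei are not given here, apart from single genes below. That label is therefore taken from the annotation. Astrocyte markers made up 56.2 and 72.9 per 10000 UMIs in the astrocytes of FGF1 mice and 42.9 and 40.1 in those of vehicle mice, against 0.324 to 6.35 in OPC/COP, oligodendrocytes, microglia and Agrp neurons. Oligodendrocyte markers stood at 25.3 to 29.2 per 10000 UMIs in oligodendrocytes of the 4 mice. The nuclei labelled OPC/COP, oligodendrocytes and microglia also carried neuronal markers, at 114 to 149, 130 to 187 and 130 to 194 per 10000 UMIs, close to the 161 to 221 of unmapped neurons and above the 31.5 to 50.9 of astrocytes. These levels overlapped between FGF1 and vehicle mice in OPC/COP and oligodendrocytes and were higher in both FGF1 mice in microglia, and their part in the results was not tested. Microglial markers were at only 5.66 to 7.502 per 10000 UMIs in the nuclei labelled microglia.

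Of the cell types with at least 10 nuclei in every mouse, OPC/COP had the most DEGs on Day 5 with edgeR. At an FDR below 0.05, 74 of 5767 genes differed in OPC/COP (1.28% of those tested), 49 higher (0.85%) and 25 lower (0.434%) with FGF1. Astrocytes followed with 53 DEGs (0.625%), of which 3 were higher (0.0354%) and 50 lower (0.589%). Glu5 neurons and n29 Nr5a1 neurons had 26 each (0.321% and 0.281%), all lower in Glu5 and 25 of 26 lower in n29. Oligodendrocytes had 10 (0.119%), microglia 6 (0.121%), n16 Rgs16/Vip neurons 4 (0.0782%), Glu4 neurons 3 (0.0845%), n06 Oxt neurons 2 (0.103%) and Agrp neurons 2 (0.149%). Outside OPC/COP, 6 DEGs were higher in all. The order of types turned with the method: DESeq2 called 31 genes in astrocytes and 29 in OPC/COP, and with batch as a covariate n29 had 166 and OPC/COP 62. Numbers of DEGs are not comparable as a measure of response, because the types differed in nuclei per mouse and in genes tested.

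**Figure D1:**
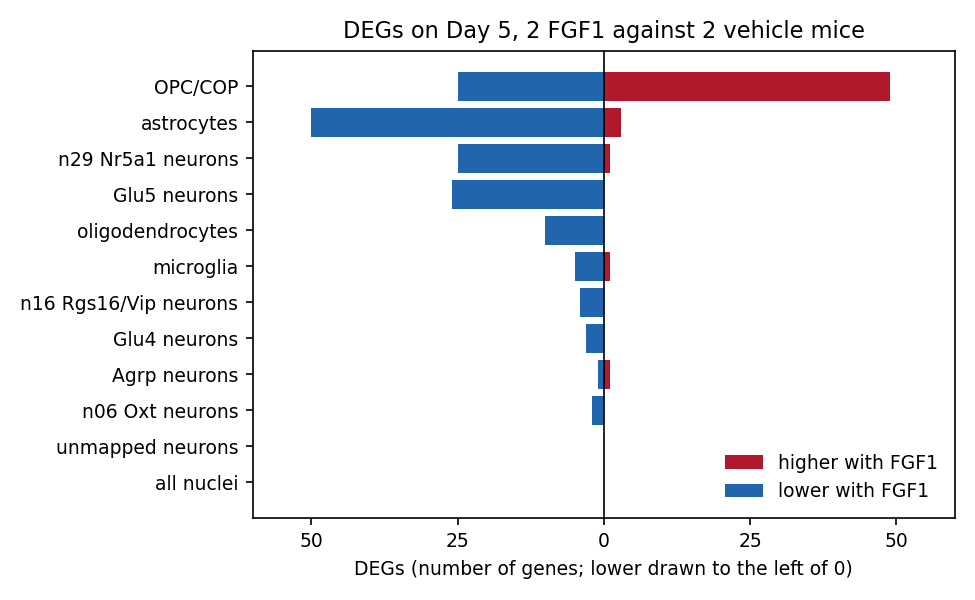
Number of DEGs (edgeR, FDR below 0.05) per cell type on Day 5, with genes higher in FGF1 mice drawn to the right of 0 and genes lower drawn to the left. OPC/COP carried 49 of the higher DEGs, whereas in every other type most or all bars lie to the left, except Agrp neurons with 1 on each side.

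No gene passed in the sum over all nuclei (0 of 16929, 0.0%) or in unmapped neurons (0 of 14599, 0.0%) with edgeR, although 1631 and 1453 genes had an unadjusted p below 0.05 and DESeq2 called 53 and 15. The gene of smallest p over all nuclei was Bcas1, a gene of newly myelinating oligodendrocytes. It stood at 52.4 and 67.1 CPM in FGF1 mice and at 18.9 and 16.7 in vehicle mice, a log2 difference of 1.74 ± 0.21 (SE) that missed the threshold with edgeR (FDR 0.471) and passed with DESeq2 (FDR 2.91e-06). Next came Avp, which encodes vasopressin, with 2.19 and 3.30 CPM against 29.0 and 13.6 (log2 -2.97 ± 0.41, edgeR FDR 0.493, DESeq2 FDR 1.76e-06). In unmapped neurons the smallest p belonged to Med28, a Mediator subunit, at 8.57 and 6.47 against 32.1 and 25.6 CPM, and Acer1, an alkaline ceramidase, at 79.3 and 72.8 against 154.7 and 166 (both edgeR FDR 0.199). DESeq2 gave FDR values of 0.00553 for Med28 and 0.00295 for Acer1.

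OPC/COP nuclei numbered 85 and 202 in FGF1 mice 37 and 45 and 52 and 17 in vehicle mice 28 and 38. Genes of the differentiating stage were raised as a group in these nuclei, while genes that mark the precursor stage were mostly below 0. Of 24 genes listed for oligodendrocyte differentiation, 18 could be tested, and 16 lay above 0 and 2 below. Of these 18, 11 were higher DEGs and none was a lower DEG, where 0.85% and 0.434% of all tested genes were. Their median log2 fold change was 1.88 where the median of all tested genes was 0.00. The list's median was 1.48 within batch 1 and 1.96 within batch 2. Of 23 listed myelin genes 14 were tested, and 13 lay above 0 and 1 below (median 1.33, 0.65 and 2.44 by batch). Among these 14, 4 were higher DEGs and none was a lower DEG. Of 18 listed OPC genes 15 were tested, 13 lay below 0 and only Tnr was a DEG, and the median was -0.48. Across the label, fewer nuclei of a stage and less RNA per nucleus cannot be told apart in summed counts.

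Enpp6, a choline phosphodiesterase that marks premyelinating oligodendrocytes, had the largest fold among genes with more than 3 vehicle UMIs. The gene lies on chromosome 8 from 46986887 to 47096762 on the plus strand (GRCm38) and no annotated exon of another gene overlaps it. It was counted at 215 and 359 CPM in FGF1 mice 37 and 45 and at 17.8 and 13.3 CPM in vehicle mice 28 and 38, and both FGF1 mice lay far above both vehicle mice. These values rest on 288 UMIs in FGF1 mice and only 4 in vehicle mice, so the vehicle level was thinly counted. The fitted log2 fold change was 4.12 ± 0.53 (FDR 2.26e-05), with 3.17 in batch 1 and 4.19 in batch 2. Bcas1 stood at 818 and 1004 CPM against 178 and 106 (log2 2.58 ± 0.30, FDR 1.02e-05). Exons of the antisense genes Bcas1os1 and Bcas1os2 overlap Bcas1 on the other strand, and none of another gene overlaps it on the same strand. Bcas1os2 was itself higher, and any part of it in the count of Bcas1 was not tested. Sirt2, a deacetylase abundant in myelinating cells, was at 575 and 963 against 131 and 79.8 CPM (log2 2.77 ± 0.34, FDR 1.24e-05), and its exons overlap Nfkbib on the other strand.

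Signalling genes of the differentiation list moved the same way. Fyn, a Src family kinase that acts in process outgrowth and myelination, was at 1069 and 1336 CPM in FGF1 mice and at 172 and 293 in vehicle mice (log2 2.47 ± 0.30, FDR 1.24e-05). The ligand gene Bmp4, which is expressed transiently by COP, had 82 UMIs in FGF1 mice and only 3 in vehicle mice, so its ratio of 7.04 carries a counting interval of 2.32 to 34.8 (FDR 0.0302). Cnksr3, a scaffold protein gene, rested on 103 UMIs against 1 (ratio 26.5, counting interval 4.65 to 1057, FDR 0.00497). The Wnt pathway transcription factor Tcf7l2 was at 290 and 412 against 119 and 106 CPM (log2 1.63 ± 0.32, edgeR FDR 0.00535, DESeq2 FDR 0.0809). Tns3, a focal adhesion protein gene of early oligodendrocytes, was at 287 and 453 against 89.1 and 93.1 CPM (log2 2.04 ± 0.35, FDR 0.00123). Mpzl1, Pik3r3 and Frmd4a, the last 3 of the 11, rose by log2 2.01 ± 0.37, 1.74 ± 0.29 and 1.41 ± 0.27, with FDR values of 0.00302, 0.00116 and 0.00467. In all 11 genes both FGF1 mice were above both vehicle mice, where 20.5% of tested genes were. The 11 were picked as DEGs, so this order adds little.

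**Figure D2:**
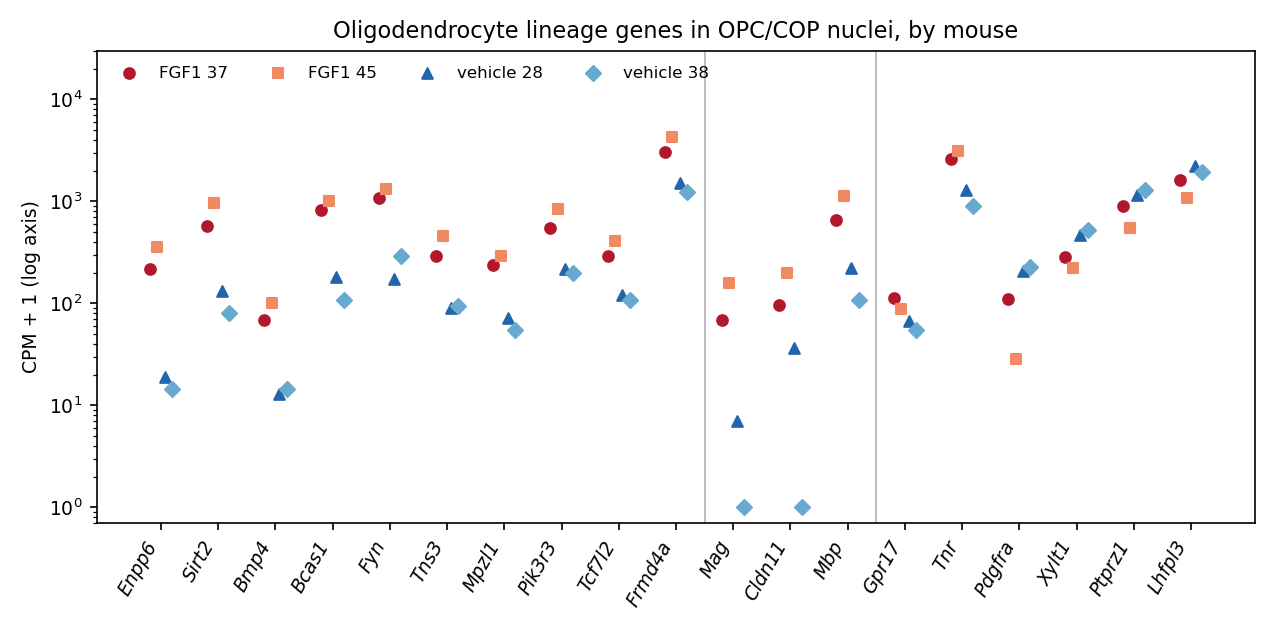
CPM + 1 (log axis) of oligodendrocyte lineage genes in OPC/COP nuclei, 1 point per mouse, with 10 of the 11 DEGs of the differentiation list at the left, myelin genes in the middle and Gpr17 with OPC genes at the right. Both FGF1 mice lie above both vehicle mice for every gene of the left and middle panels, for Gpr17 and for Tnr, and below them for Pdgfra, Xylt1, Ptprz1 and Lhfpl3, of which none passed the FDR threshold. Of all tested genes 20.5% lay higher and 19.3% lower without overlap.

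Myelin protein genes were raised in both FGF1 mice, with wider spread. Mbp, which encodes myelin basic protein, was at 658 and 1130 CPM in FGF1 mice 37 and 45 and at 220 and 106 in vehicle mice 28 and 38 (log2 2.33 ± 0.33, FDR 1.13e-04). Mag, a periaxonal adhesion molecule, had 116 UMIs against 1, a ratio of 29.9 with a counting interval of 5.25 to 1189 (FDR 0.00464). Cldn11, the tight junction protein of myelin, was at 94.9 and 197 against 35.6 and 0 CPM (log2 2.62 ± 0.61, edgeR FDR 0.027, DESeq2 FDR 0.171). For each of them the difference was larger in batch 2 than in batch 1, at 3.33 and 1.55 for Mbp. Oligodendrocyte markers as a set made up 16.3 and 25.0 per 10000 UMIs in OPC/COP of FGF1 mice and 6.34 and 2.04 in those of vehicle mice, so RNA of mature oligodendrocytes moved with the group, and its part in the rise of myelin genes was not tested. In nuclei labelled oligodendrocytes the same markers did not rise to that extent, at 29.2 and 27.7 against 25.8 and 25.3, and 0 of 20 tested myelin genes were DEGs there.

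Other large increases fell outside the lists. Rhbdl2, a rhomboid protease gene, had 74 UMIs in FGF1 mice and 0 in vehicle mice, which is at least 6.35-fold higher when set against 3 counts over the vehicle group (FDR 0.014). Kif19a, a kinesin gene, had 80 UMIs against 1 (ratio 20.6, interval 3.59 to 823), and Elovl7, which elongates very long chain fatty acids, 79 against 1 (ratio 20.3, interval 3.55 to 813). The zinc finger transcription factor St18, chosen after its values were seen, was at 907 and 1035 CPM in FGF1 mice and at 124.8 and 53.2 in vehicle mice (log2 3.28 ± 0.33, FDR 6.89e-07), the smallest FDR among the higher genes. Nfasc, the paranodal adhesion protein neurofascin, and Qk, an RNA-binding protein that stabilises myelin transcripts, were also among the 49 and were likewise picked after the values were known, with log2 values of 2.13 ± 0.30 and 1.32 ± 0.26. Of the 74 DEGs, 72 had CPM that did not overlap between the groups, where 20.5% of tested genes lay higher and 19.3% lower without overlap. The 74 were picked for their difference in these same mice, so the lack of overlap adds little. With batch as a covariate 58 of the 74 passed again, and Bmp4, Cldn11 and Ptgfrn did not.

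Markers of the precursor stage gave no DEG except Tnr, which rose. Tnr encodes tenascin-R, a matrix glycoprotein of perineuronal nets, and was at 2623 and 3089 CPM in FGF1 mice against 1289 and 891 (log2 1.36 ± 0.27, FDR 0.00527). Pdgfra, the receptor that keeps OPC dividing, was at 109 and 27.2 against 208 and 226 CPM (log2 -1.78 ± 0.47), and missed the threshold with an FDR of 0.0726. Gpr17, a receptor that the study used to detect COP and newly formed oligodendrocytes, was at 112 and 86.8 against 65.4 and 53.2 CPM (log2 0.67 ± 0.43, FDR 0.672). Myrf, the transcription factor that switches on myelin genes, was at 39.1 and 39.1 against 0 and 13.3 CPM and rested on a single vehicle UMI (FDR 0.213). Of 15 ERK feedback genes 5 were tested and 0 were DEGs (median -0.86), and FGF receptor genes Fgfr1 (log2 -0.39 ± 0.51) and Fgfr2 (log2 -0.12 ± 0.24) were among 6 tested receptor and ligand genes of which 0 were DEGs.

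Promoters of a pair of these genes are shown because Enpp6 had that largest fold and Mag was the higher DEG with both motifs searched. The letters searched, on both strands, were ACAAAG, a core of SOX factor sites, and CTGGCAC or CTGGTAC for MYRF. They are the 250 bases before the RefSeq start (GRCm38.p6), for Enpp6 chr8:46986637-46986886 on the plus strand and for Mag chr7:30914864-30915113 on the minus strand, in lower case with matches in capitals, printed along the gene.
Enpp6: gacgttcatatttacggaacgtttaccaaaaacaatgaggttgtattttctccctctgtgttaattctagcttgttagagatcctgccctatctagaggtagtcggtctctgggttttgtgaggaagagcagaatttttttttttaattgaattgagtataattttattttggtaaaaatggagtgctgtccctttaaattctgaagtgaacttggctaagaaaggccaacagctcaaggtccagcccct
Mag: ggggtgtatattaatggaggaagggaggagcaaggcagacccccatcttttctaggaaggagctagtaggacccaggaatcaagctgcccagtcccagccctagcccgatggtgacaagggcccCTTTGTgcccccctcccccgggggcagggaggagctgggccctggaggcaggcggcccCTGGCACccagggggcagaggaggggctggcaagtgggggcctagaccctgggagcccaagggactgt
Mag held 1 match of each motif before the start shown, and Enpp6 held neither. Mag has other RefSeq starts. The bases before one of them (chr7:30914923-30915172) overlap those shown and held the same matches, and those before another (chr7:30914322-30914571) held neither motif. Of 41 higher OPC/COP DEGs with a promoter in the table, 8 (19.5%) held the SOX letters and 3 (7.32%) the MYRF letters, against 16.5% and 5.86% of 27025 promoters of all genes and 11.4% and 4.87% of the 4372 tested genes with a promoter. Of 15 lower OPC/COP DEGs with a promoter, 3 (20.0%) held the SOX letters and 2 (13.3%) the MYRF letters. Neither motif was thus more frequent among the higher DEGs than among the lower ones. Such matches describe letters only.

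Shares of OPC/COP nuclei with a transcript were also counted at equal depth. They rest on the same nuclei and mice, and Enpp6, Bcas1 and Sirt2 were already DEGs. The shares therefore describe the difference and add no separate support. With every nucleus thinned to 1408 UMIs, Enpp6 was found in 14 of 85 (16.5%, exact 95% interval 9.31 to 26.1) and 79 of 202 (39.1%, 32.3 to 46.2) nuclei of FGF1 mice 37 and 45. In vehicle mice it was found in 1 of 52 (1.92%, 0.0487 to 10.3) and in 0 of 17 nuclei, which allows a share of up to 19.5%. Bcas1 was found in 49.4% and 69.8% against 26.9% and 5.88%, and Sirt2 in 41.2% and 67.3% against 11.5% and 5.88%. Pdgfra went the other way, with 14.1% and 2.97% against 28.8% and 23.5%. Lhfpl3, a membrane protein gene used as an OPC marker, was found in 82.4% and 67.3% against 94.2% of nuclei and in all 17. Intervals cover counting error only. In unmapped neurons, which should lack both genes, Enpp6 was found in 0.00 to 0.523% and Bcas1 in 0.439 to 1.27% of nuclei at the same thinned depth, whereas Lhfpl3 and Fyn are also expressed by neurons. Without thinning, at median depths of 2642.5 to 4390 UMIs in OPC/COP and 2151.5 to 3716 in unmapped neurons, Enpp6 was found in 43.5% and 58.9% against 5.77% and 5.88% of OPC/COP nuclei. No overlap between groups was seen in OPC/COP for any of these genes, and the two-sided exact permutation p was 0.333, the smallest possible. By CPM, 20.5% of all tested OPC/COP genes lay higher and 19.3% lower without overlap.

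**Figure D3:**
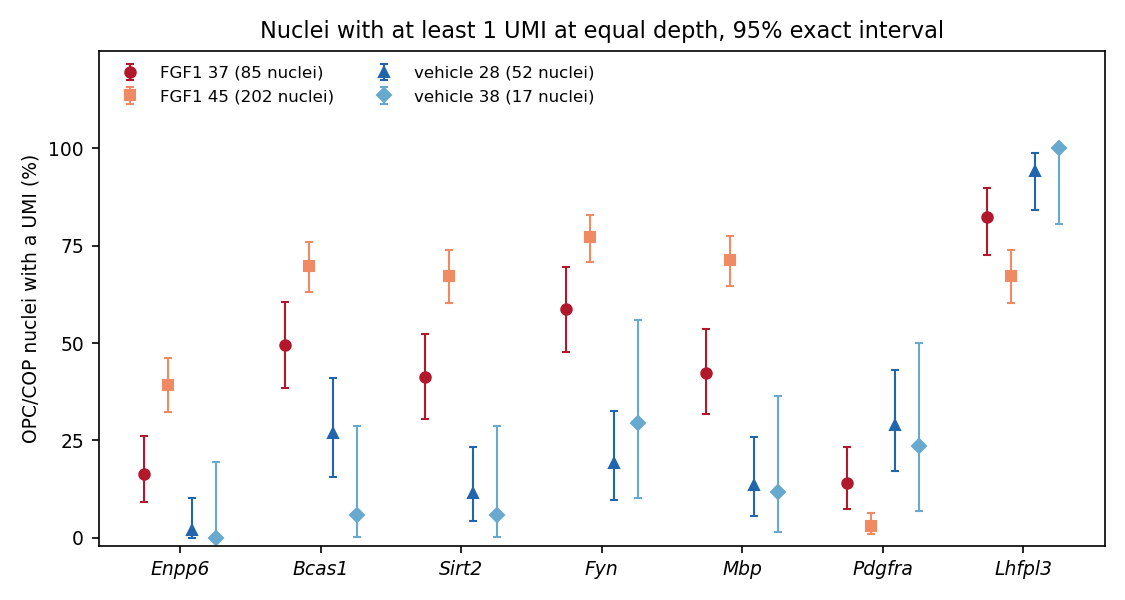
Percent of OPC/COP nuclei with at least 1 UMI of 7 genes after thinning every nucleus to 1408 UMIs, by mouse, with exact 95% binomial intervals. FGF1 mice lie above vehicle mice for Enpp6, Bcas1, Sirt2, Fyn and Mbp and below them for Pdgfra and Lhfpl3, and the 17 nuclei of vehicle mouse 38 give the widest intervals.

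The OPC/COP DEGs were then read in whole cells of a separate cohort on Day 5 (6 FGF1 and 6 PF vehicle mice, no mouse shared), in which 2774 of 8691 genes (31.9%) were DEGs. Of the 74 nuclear DEGs 68 were tested there, 65 had the same direction and 54 of these were DEGs, and none was a DEG in the opposite direction. Over all 4724 genes tested in both, 57.3% had the same direction. Among the higher genes 46 of 47 shared direction and were DEGs, and among the lower genes 19 of 21 shared direction and 8 were DEGs. Enpp6 was at 515 ± 108 CPM (SD, n = 6) in whole cells of FGF1 mice and 55.8 ± 12.5 (n = 6) in those of vehicle mice (log2 3.24 ± 0.16, edgeR FDR 8.81e-18). Bmp4, thinly counted in nuclei, was at 267 ± 91.6 against 22.6 ± 16.3 CPM (log2 3.63 ± 0.46, edgeR FDR 1.17e-04), and Gpr17, no DEG in nuclei, at 1766 ± 446 against 860 ± 207 (log2 1.03 ± 0.17, edgeR FDR 1.10e-04). The whole-cell clusters set beside OPC/COP nuclei were named here from OPC and COP markers, so the populations may not match exactly.

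Whether the FGF1 effect in OPC/COP differed from that on Day 1 was tested as an interaction over all 10 nuclei mice. It passed for 6 of 5875 genes (0.102%), all with a larger effect on Day 5. For St18 the Day 5 effect exceeded the Day 1 effect by log2 3.51 ± 0.46 (FDR 7.65e-04), with a Day 1 value of -0.21 ± 0.28. For Mbp the difference was 3.13 ± 0.52, for Sirt2 2.65 ± 0.46, for Fyn 2.56 ± 0.46, for Epb41l2, a membrane skeleton protein gene, 2.70 ± 0.50, and for the lincRNA Gm13052 3.23 ± 0.63. Enpp6 (4.58 ± 0.94, FDR 0.0617) and Bcas1 (2.43 ± 0.57, FDR 0.132) missed the threshold. Days were separate sets of mice, so day and run cannot be told apart.

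**Figure D4:**
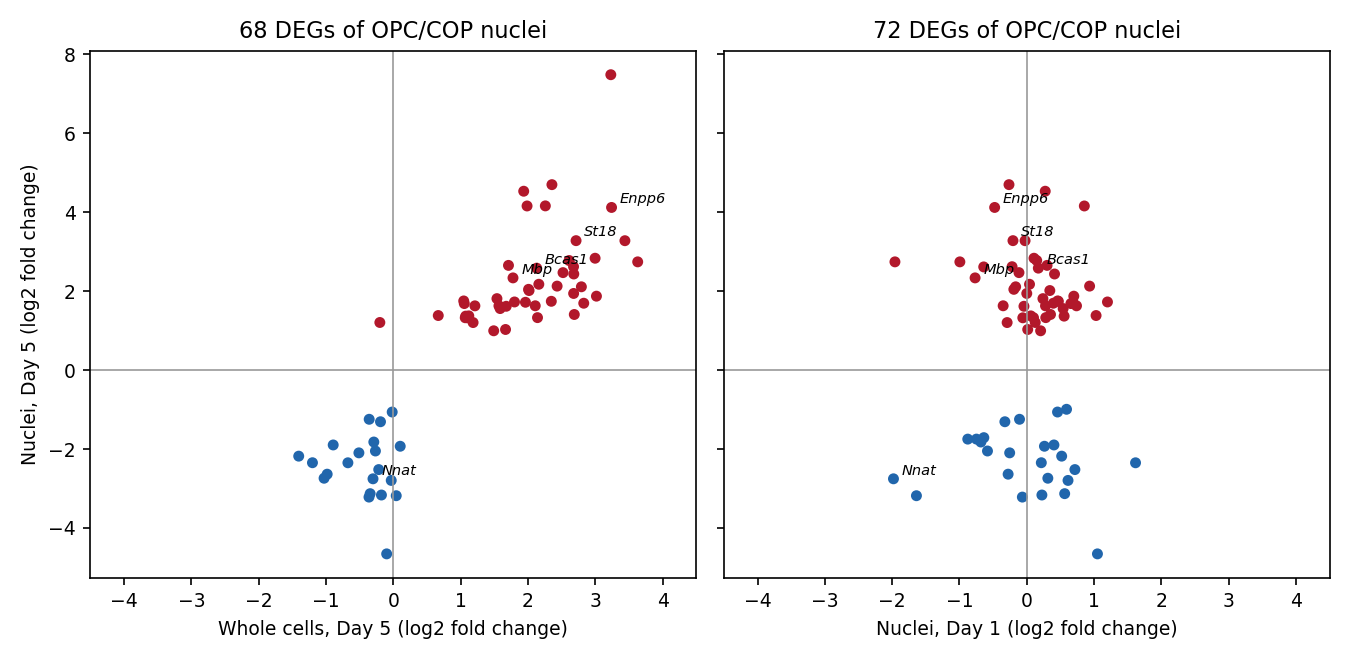
Log2 fold change (FGF1 over vehicle) of OPC/COP DEGs in Day 5 nuclei (y axis) against the same genes in Day 5 whole cells (left, 68 genes) and in Day 1 nuclei (right, 72 genes), red for higher and blue for lower on Day 5 in nuclei. In whole cells the higher genes lie to the right of 0 except 1, and on Day 1 they lie on both sides of 0. The genes were chosen for their Day 5 difference, so the spread between days is shown as a description.

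The 25 lower OPC/COP DEGs were of another kind. The smallest FDR belonged to Nnat, the imprinted gene of neuronatin, a small membrane protein of the endoplasmic reticulum, at 131 and 208 CPM in FGF1 mice 37 and 45 and 1242 and 1077 in vehicle mice 28 and 38 (log2 -2.75 ± 0.27, FDR 5.99e-07). The lincRNA Gm26917 was at 16.7 and 15.3 against 202 and 53.2 CPM (log2 -3.18 ± 0.51). Cox6a1, a subunit of cytochrome c oxidase, was at 22.3 and 20.4 against 238 and 120 CPM (log2 -3.16 ± 0.43), and Cox8a, of the same complex, at 41.9 and 20.4 against 398 and 39.9, where vehicle mouse 38 lay within the range of FGF1 mice. Srp9, of the signal recognition particle, and Ptgfrn, a membrane partner of tetraspanins, fell by log2 2.80 ± 0.64 and 2.74 ± 0.67. Eif1, a translation initiation factor, was at 66.96 and 42.55 against 261 and 106 CPM, and Ly6h, a GPI-anchored neuronal protein gene, at 66.96 and 62.97 against 416 and 106. In both, mouse 38 was the lower of the vehicle mice and the groups did not overlap. Without vehicle mouse 28, 40 of the 74 DEGs passed again and all 74 kept their direction.

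Astrocytes (110 and 384 nuclei in FGF1 mice, 208 and 33 in vehicle mice) had 3 higher DEGs on Day 5. Serpina3n, a secreted protease inhibitor that reactive astrocytes make, was at 70.1 and 91.1 CPM in FGF1 mice against 17.9 and 14.1 in vehicle mice (log2 2.25 ± 0.46, FDR 0.0259). Fabp7, the brain fatty acid-binding protein of radial glia and astrocytes, was at 278 and 525 against 109 and 84.7 CPM (log2 2.02 ± 0.43, FDR 0.0323). Plat, tissue plasminogen activator, was at 143 and 232.5 against 55.3 and 35.3 CPM (log2 1.95 ± 0.41, FDR 0.0323). All 3 were also higher DEGs in whole-cell astrocytes, where 1240 of 9830 genes (12.6%) were DEGs, with log2 values of 2.26 ± 0.58, 0.98 ± 0.15 and 1.67 ± 0.14 (n = 6 a group). With DESeq2 on the nuclei 7 of the 53 astrocyte DEGs passed, Fabp7 among them (FDR 0.0059), and Serpina3n and Plat were given no adjusted p. With batch as a covariate 22 of the 53 passed again, and Fabp7 and Plat did not.

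Other genes of reactive astrocytes lay above 0 without passing with edgeR, and the pair described here passed with DESeq2 and in whole cells. Gfap, the intermediate filament of astrocytes, was at 544 and 851 CPM in FGF1 mice against 208 and 254 (log2 1.61 ± 0.40, edgeR FDR 0.0696, DESeq2 FDR 0.0121), and in whole cells its log2 was 2.21 ± 0.53 (edgeR FDR 0.0226). Aqp4, the endfoot water channel, was at 757 and 864.5 against 205 and 318 CPM (log2 1.67 ± 0.40, edgeR FDR 0.0571, DESeq2 FDR 0.00702), and in whole cells its log2 was 1.53 ± 0.13 (edgeR FDR 8.08e-09). Of 13 listed pan-reactive genes 4 were tested, all 4 above 0 and 1 a DEG (median 1.81, by batch 1.27 and 2.04), and of 24 genes of transmitter uptake and homeostasis 0 were DEGs (median 0.26). Etnppl, a phospholyase gene of astrocytes, had log2 -0.34 ± 0.37 (FDR 0.748). Of 15 ERK feedback genes 6 were tested and 0 were DEGs, 3 above and 3 below 0.

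The 50 lower astrocyte DEGs included genes of the respiratory chain, of ribosomes and of neurons, and vehicle mouse 28 had the highest value in each of those given here except Hba-a2 and Rpl7a. Pcsk1n, which encodes the neuroendocrine proSAAS, was at 10.0 and 9.64 CPM in FGF1 mice against 278 and 49.4 in vehicle mice 28 and 38 (log2 -4.23 ± 0.62, FDR 0.0221). Haemoglobin Hba-a2 had 2 UMIs in FGF1 mice and 22 in vehicle mice, a ratio of 19.4 (interval 4.77 to 170) with vehicle higher. The mitochondrial ribosomal gene Mrpl54 was at 7.52 and 6.43 against 107 and 21.2 CPM, Cox6a1 at 87.7 and 71.8 against 1339 and 198, and Gm26917 at 12.5 and 2.14 against 73.2 and 28.2. Pmch, the melanin-concentrating hormone gene of lateral hypothalamic neurons, was at 105 and 265 against 1129 and 565 CPM. Ribosomal protein genes were below 0 in 77 of 77 tested, with 2 DEGs (Rpl7a, log2 -1.96 ± 0.44, and Rplp2, -2.19 ± 0.44) and a median of -1.07, by batch -1.45 and -0.46. Genes of oxidative phosphorylation had 2 DEGs among 78 tested (Cox6a1, and Ndufa6 at -2.17 ± 0.43) and a median of -0.78, which was -1.32 in batch 1 and -0.04 in batch 2. In whole-cell astrocytes 44 of the 48 tested lower genes shared direction, over all genes 61.9% did, and 7 were DEGs. Without vehicle mouse 28, 10 of the 53 astrocyte DEGs passed again, and without nuclei above the 5% limit 27 did.

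Across cell types several transcripts were lower, and all types came from the same 4 mice. The lowering was not confined to single genes or to astrocytes. Ribosomal protein genes lay below 0 in 80 of 82 tested over all nuclei, 72 of 76 in n29 and 67 of 75 in oligodendrocytes. None of these was a DEG, and in n06 Oxt neurons 25 of 46 lay below 0. For oxidative phosphorylation genes it was 73 of 82, 63 of 74 and 64 of 75, but 30 of 56 in Glu4 neurons. Nnat was a DEG in 7 types and below 0 in all 10 in which it was tested, from 569 and 530 CPM against 4200 and 1795 in n16 Rgs16/Vip neurons to 84.3 and 43.9 against 274 and 449 in Glu4 neurons. In astrocytes, where it did not pass, Nnat was at 1105 and 1110 against 2529 and 1228 CPM, and in n06 Oxt neurons the groups overlapped. Gm26917 was a DEG in 6 types and below 0 in all 9 tested, at 10.5 to 26.8 CPM against 132.5 to 182 in oligodendrocytes (log2 -3.37 ± 0.37, FDR 1.92e-04). Eif1, Ly6h and Rabac1, a Rab regulator gene, were DEGs in 5 types each. For Rabac1 in oligodendrocytes the values were 68.0 and 54.2 against 307 and 107 CPM (log2 -1.97 ± 0.34, FDR 0.0199). In whole cells Nnat was no DEG in OPC/COP (log2 -0.30 ± 0.37, edgeR FDR 0.588) or oligodendrocytes (log2 0.44 ± 0.39, edgeR FDR 0.632). Gm26917 was no DEG there in OPC/COP (log2 0.04 ± 0.22), oligodendrocytes (-0.12 ± 0.33) or astrocytes (-0.60 ± 0.38). Of the lower nuclear DEGs tested there, 6 of 8 in oligodendrocytes and 3 of 4 in microglia shared direction and 0 were DEGs. Over all genes 51.5% and 52.2% shared direction. In whole cells only 190 of 8438 and 7 of 2676 tested genes were DEGs, so 0 among so few genes says little. All 13 mitochondrially encoded genes lay below 0 in the sum of all nuclei (median -1.16, by batch -1.65 and -0.67) with 0 DEGs, and this moved with the higher share of vehicle nuclei above the mitochondrial or ribosomal limit. Its part in the lower transcripts was not tested beyond leaving out those nuclei, which left all 25 lower genes of OPC/COP and 27 of the 53 astrocyte genes as DEGs. How many nuclei this took from each type is not given here, and where few were taken it could change little.

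**Figure D5:**
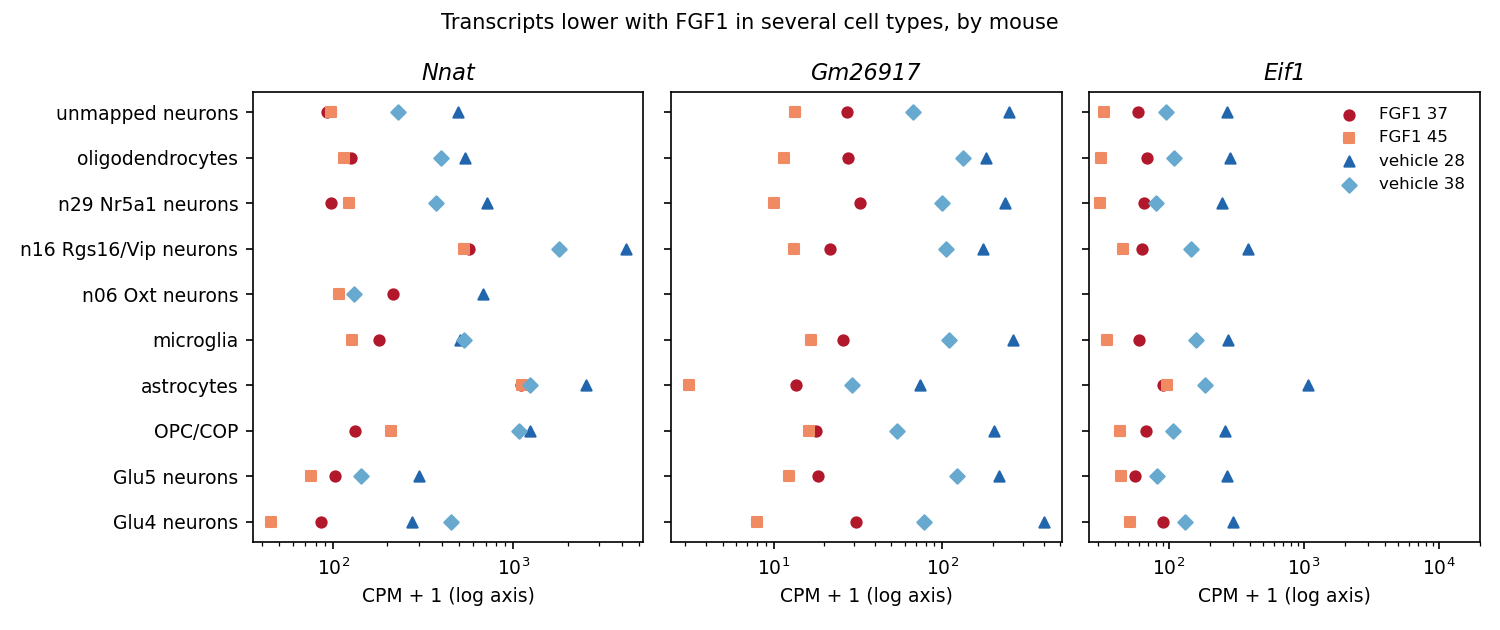
CPM + 1 (log axis) of Nnat, Gm26917 and Eif1 by cell type, 1 point per mouse, with types left blank where the gene was not tested. Vehicle mice (blue) lie above FGF1 mice (red) in every type shown except n06 Oxt neurons for Nnat, and vehicle mouse 28 is the highest of the 4 in every panel row except Nnat in Glu4 neurons and microglia.

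Neurons had 1 or no higher DEG per type. In Agrp neurons (12 and 45 nuclei in FGF1 mice, 43 and 14 in vehicle mice), which drive feeding, Cntn5, a neuronal adhesion molecule, was at 5115 and 4362 CPM against 1617 and 1246 (log2 1.70 ± 0.33, FDR 0.0204) and Ly6h at 191 and 121 against 1334 and 769 (log2 -2.86 ± 0.44, FDR 0.00147). Both calls were lost with batch as a covariate, with log2 values of 1.72 for Cntn5 in Agrp neurons and -2.72 for Ly6h in Agrp neurons. Npy, their orexigenic peptide gene, was at 7052.5 and 11075 against 21505 and 28618 CPM (log2 -1.46 ± 0.33), which missed the threshold with edgeR (FDR 0.0673) and passed with DESeq2 (FDR 0.0334). Agrp itself was at 5686.5 and 11598 against 17503 and 18688 CPM (log2 -1.06 ± 0.34, FDR 0.51). Both vehicle mice lay above both FGF1 mice for Npy and Agrp. Over all nuclei Pomc, the precursor gene of the opposing melanocortin peptides, was at 9.24 and 13.6 against 42.5 and 13.3 CPM, and the groups overlapped.

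In n06 Oxt neurons, Avp was at 137 and 199 CPM in FGF1 mice against 1191 and 494 in vehicle mice (log2 -2.40 ± 0.38, edgeR FDR 2.01e-04, DESeq2 FDR 0.0652). In n29 Nr5a1 neurons of the ventromedial hypothalamus, Pde10a, a cyclic nucleotide phosphodiesterase, was the higher DEG at 365 and 350 against 179 and 238 CPM (log2 0.82 ± 0.18, edgeR FDR 0.0489, DESeq2 FDR 0.813). Hcrt, the orexin gene of lateral hypothalamic neurons and thus not of this type, had 2 UMIs there in FGF1 mice and 31 in vehicle mice (vehicle higher by a ratio of 24.2, interval 6.16 to 209). It did not pass with DESeq2 (FDR 0.807). In Glu5 neurons the largest decrease was that of Snhg20, a small nucleolar RNA host gene, at 2.89 and 10.3 against 306 and 40.4 CPM (log2 -4.89 ± 0.53, edgeR FDR 1.56e-04). Snhg20 did not pass with DESeq2. The 26 Glu5 DEGs included Cox5b, Cox6a1, Cox8a and Ndufb2 of the respiratory chain. CPM overlapped between the groups for 9 of these 26, and without vehicle mouse 28 none of the 26 passed and only 19 kept their direction. None passed with batch as a covariate, and 1 passed with DESeq2.

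Mature oligodendrocytes (113 and 424 nuclei against 182 and 31) had 10 DEGs, all lower. Gm11273 fell by log2 3.58 ± 0.60, Rab26, a small GTPase gene, by 2.92 ± 0.54, Cox6a1 by 2.86 ± 0.41 and Nnat by 2.03 ± 0.22. With DESeq2 Cox6a1 (FDR 0.0205) and Nnat (FDR 7.86e-08) passed, and Gm11273 (FDR 0.331) and Rab26 did not. Genes for oligodendrocyte differentiation had 0 DEGs among 13 tested there (median 0.41). Microglia (46 and 122 nuclei against 51 and 18) had 5 lower DEGs, among them Gm26917, at 24.8 and 15.7 against 261 and 109 CPM (log2 -3.39 ± 0.49, FDR 0.00356). Oligodendrocyte markers made up 7.20 and 7.73 per 10000 UMIs in microglia of FGF1 mice and 3.19 and 2.89 in those of vehicle mice. Of 21 homeostatic microglial genes 16 were tested and 0 were DEGs.

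Tanycytes could not enter with the minimum of 10 nuclei, because vehicle mouse 28 had 9. With all 4 mice kept (34 and 107 nuclei against 9 and 14) 0 of 2437 genes (0.0%) passed with edgeR, 207 had an unadjusted p below 0.05 and DESeq2 called 2. Vim, an intermediate filament gene, was at 355 and 344 CPM in FGF1 mice against 86.8 and 132 (log2 1.57 ± 0.44, FDR 0.444). The smallest p belonged to Usp29, the gene of a ubiquitin-specific peptidase, at 278 and 265 against 781 and 795 CPM, and to 4931414P19Rik, at 106 and 88.3 against 391 and 375 (both FDR 0.411). The effect of FGF1 in tanycytes differed between Day 5 and Day 1 for 42 of 5067 genes (0.829%), and DESeq2 called 33. The signed log2 fold change was larger on Day 5 in 40 and smaller in 2, which does not mean a stronger effect on Day 5. In the same fit 508 of the 5067 genes were DEGs on Day 1, with 3 mice a group. Dnah12, a dynein gene of motile cilia and also an ependymal marker, had a log2 of 0.97 ± 0.55 on Day 5 and -4.00 ± 0.54 on Day 1, and was chosen after its values were seen. The part of ependymal RNA in these differences was not tested. Ependymal nuclei (31 and 36 against 3 and 8) were too few to be tested.

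Shares of cell types were compared last. Over 34 types, 12 had shares that did not overlap between the groups, 2 higher and 10 lower with FGF1. With 2 mice against 2, random labels give no overlap with a probability of 0.333, and 12 of 34 is near that. The smallest permutation p adjusted over these types and the filtered nuclei was 0.972. OPC/COP made up 3.83% and 3.50% of the nuclei of FGF1 mice and 1.63% and 2.88% of those of vehicle mice. Agrp neurons made up 0.541% and 0.780% against 1.35% and 2.37%, n06 Oxt neurons 1.08% and 0.728% against 1.57% and 2.20%, and n29 Nr5a1 neurons 7.75% and 7.52% against 8.33% and 12.0%. Each unadjusted two-sided exact permutation p was 0.333, the smallest that 2 mice against 2 allow.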

How the data were processed

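Single-nucleus RNA-seq (10x 3′ v2 chemistry, 1 mouse per library) was used. Per the submitters' processing notes, Cell Ranger 1.2 and Seurat were used. Per the methods the authors aligned reads to GRCm38 with introns included for nuclei, and they deposited whole-number UMI counts per gene and nucleus together with cell type, sample and batch of each nucleus. No doublet caller was run here, and all nuclei were kept. Those marked as filtered in the annotation were part of the all-nuclei sum but of no cell type.

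Counts were summed per mouse over all nuclei and per annotated cell type. A type was tested where all 4 mice had at least 10 nuclei. Genes were filtered by filterByExpr, libraries scaled by TMM, and FGF1 compared with vehicle by edgeR 4.0.16 (robust glmQLFit and glmQLFTest, R 4.3.3) without covariates. DEGs passed an FDR of 0.05 (Benjamini-Hochberg, adjusted across every gene tested within the type). CPM are TMM-scaled, log2 fold changes are FGF1 over vehicle, ± is the SE implied by the F statistic unless SD is named, and within-batch log2 ratios used a prior count of 2. A gene with 1 to 3 UMIs in a group is given as a ratio with an exact counting interval, and with 0 as a bound against 3 counts. The edgeR fit was run on simulated astrocyte and OPC/COP counts with known folds, and its outcome is not given here. Those counts held no batch and no difference in library quality, so they cannot show how the fit behaves under either. DESeq2 1.42.0, RLE scaling, no filter, each mouse left out, batch as covariate, nuclei above 5% removed, equal totals and a fit of all 10 nuclei mice were alternatives. Whole cells were summed and tested likewise, in clusters named by a rule set after their marker profiles were seen.

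Members and the 27 gene lists were chosen with earlier results of these data known. Named genes were, per type, up to 5 (OPC/COP, astrocytes, oligodendrocytes), 3 or 1 DEGs of largest change in each direction with non-overlapping CPM and at least 20 UMIs (50 over all nuclei), list members that were DEGs in their own type, the 5 genes lower in most types, the 2 genes of smallest p in a type without DEGs, and Agrp, Npy, Pomc, Gfap, Vim, Aqp4, Gpr17, Nnat and Etnppl. Further genes were added after their values were seen. A gene that the rule named is not reported here. Gene positions came from GENCODE vM21, and promoters from RefSeq (GRCm38.p6). Lists not described in the report had at most 1 DEG in any type.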

Additional observations from a re-analysis of the deposited data

Results flagged for a closer look

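The effect of FGF1 differed between Day 5 and Day 1 in a test of the interaction for 7 genes named here and for 42 genes in tanycytes, where vehicle mouse 28 had only 9 nuclei. In OPC/COP the Day 5 log2 fold change minus that of Day 1 was 3.51 for St18, 3.23 for Gm13052, 3.13 for Mbp, 2.70 for Epb41l2, 2.65 for Sirt2 and 2.56 for Fyn. In the sum of all nuclei it was -5.41 for Hmga2, a chromatin protein gene of growing cells, with a Day 5 value of -0.50 ± 0.41 and a Day 1 value of 4.91 ± 0.33 (FDR 0.0217, 1 of 17617 genes). Groups of 2 mice are too small for a check of outlying samples. No explanation was weighed.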

How the results depend on the processing

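OPC/COP kept 74 of 74 DEGs in their direction under every alternative except equal totals, where 46 could be tested, and their number was 29 with DESeq2 and 30 with all 10 nuclei mice in 1 fit. With DESeq2 there were 53 DEGs over all nuclei, 15 in unmapped neurons, 31 in astrocytes, 3 in n29, 2 in microglia, 1 in Glu5 and 0 in Glu4, n16 and n06 neurons together (9 with edgeR). Without the low-count filter there were 1 over all nuclei, 5 in Agrp neurons, 51 in Glu5, 173 in astrocytes, 18 in microglia, 100 in n29, 69 in oligodendrocytes, 141 in unmapped neurons and 55 in the 3 neuron types. RLE scaling gave 81 in astrocytes (10 higher, 71 lower). With batch as a covariate there were 0 in Agrp neurons and Glu5, 29 in astrocytes, 166 in n29, 22 in oligodendrocytes, 13 in unmapped neurons and 5 in the 3 neuron types. Equal totals gave 1 in Agrp neurons, 0 in Glu5, 25 in astrocytes, 2 in microglia, 9 in n29, 2 in oligodendrocytes, 4 in unmapped neurons and 5 in the 3 neuron types. With 10 mice there were 0 in every other type. The cause of these changes was not tested. Leaving out 1 mouse, with its lone partner assumed to vary like the other group, gave 5 to 517 DEGs over all nuclei, 0 to 11 in Agrp neurons, 0 to 88 in Glu5, 21 to 80 in OPC/COP (21 without FGF1 mouse 45), 10 to 852 in astrocytes (852 without vehicle mouse 38), 4 to 16 in microglia, 14 to 152 in n29, 8 to 95 in oligodendrocytes, 6 to 248 in unmapped neurons and 7 to 62 in the 3 neuron types. The log2 fold change of Cox6a1 in Glu5 neurons ranged from -3.11 to 0.31 when 1 mouse was left out, that of Cox8a in Glu5 neurons from -4.29 to 6.26 and that of Ly6h in Glu5 neurons from -2.33 to 0.023, and each turned positive without vehicle mouse 28, where Cox8a had no UMI in the remaining vehicle mouse, so that its value is no bound. With DESeq2 the effect differed between days for 43 genes over all nuclei, 7 in astrocytes, 33 in tanycytes (42 with edgeR) and 1 in n29. Of the DESeq2 DEGs also tested in whole cells, 26 of 27 in OPC/COP, 23 of 27 in astrocytes and 0 of 1 in microglia shared direction. Over all genes 57.0%, 62.1% and 51.5% did. Tanycytes with all 4 mice were added after seeing the data. No paired analysis was possible because FGF1 mice (37, 45) and vehicle mice (28, 38) share no replicate number, and the fit with batch as a covariate, where each batch held 1 mouse of each group, is the nearest to it. The 17 OPC/COP and 33 astrocyte nuclei of vehicle mouse 38 limit the depth of these comparisons.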
